A study of Homo sapiens with 8 samples.

Results

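Autophagy receptors and lysosomal proteins were followed as a set of 10 genes chosen by symbol: SQSTM1, NBR1, MAP1LC3B, GABARAPL1, WIPI1, CTSB, CTSD, LAMP1, LAMP2 and TFEB. They were chosen with earlier results of these data known, so their shares against all genes are descriptions and not tests. All 10 were found among the 60592 gene rows of each library, and all 10 were among the 12063 genes tested, which reached 1 FPKM, a level scaled to gene length and library size (the unit was read from the form of the values), in 2 or more of the 8 libraries. The RNA came from the established human cell line WSU-DLCL2, a diffuse large B-cell lymphoma, and the series asks how overexpression of FDX1 changes the response of these cells to elesclomol. FDX1, or ferredoxin 1, is an iron-sulfur protein of mitochondria, and elesclomol (ES) is a copper ionophore, which takes the metal across membranes to mitochondria. The 4 groups, of 2 libraries each, were FDX1-overexpressing cells (FDX1-OE) with 15 nM ES for 48 h, control cells of genotype WT with 15 nM ES for 48 h, FDX1-OE cells with the solvent DMSO for 48 h, and WT control cells with DMSO for 48 h. The labels name neither the promoter or vector behind the overexpression nor what the control cells carry, nor whether the lines are clones. Nor do they say if the 2 libraries within each group stem from different cultures, and all p-values therefore reflect a spread between libraries that may be technical.

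Macroautophagy encloses cytoplasmic material in a double membrane, the autophagosome, which then fuses with the lysosome. Small ubiquitin-like proteins of the ATG8 family are attached to lipid in the growing membrane, and receptors such as p62 hold ubiquitinated cargo to them. In the lysosome, acid proteases and other hydrolases digest the content behind a membrane rich in the heavily glycosylated LAMP proteins. Transcription factors of the TFEB family are known to switch on many of these genes, and the sequence letters CACGTG form the core of the element they bind. These are background facts: the libraries hold mRNA, and measured neither autophagosomes, cargo nor lysosomal activity.

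RefSeq promoter windows of GRCh38.p14, the 250 bases before each RefSeq start, were matched for 8 of the 10 genes, all but CTSB and LAMP2. CACGTG, which reads the same on both strands, was found in the windows of 2 of these 8 genes. They were LAMP1, with 5 matches 192, 176, 159, 142 and 28 bases before the start, and CTSD, with 1 match 47 bases before it. Of 35116 windows in the whole table, 6.34% held CACGTG, and LAMP1's was the only one with 5 or more matches. A second motif, TGACNNNGC, the core letters of the antioxidant response element, was searched on both strands, and can overlap CACGTG by shared letters. It was found in the windows of MAP1LC3B, CTSD and LAMP1, once each, and in 10.9% of all windows. In LAMP1 it shared 2 bases with the CACGTG farthest from the start. RefSeq starts are not always those of GENCODE, and some windows lie partly or wholly in exons of GENCODE release 29, on the same strand. This was so for all 250 bases in MAP1LC3B, 199 in GABARAPL1, 198 in the last of 3 windows of SQSTM1 and 65 in CTSD, and for at most 17 bases in the rest. The LAMP1 window, chr13:113296989-113297238 on the plus strand, is shown because it holds the most CACGTG matches, which are in capitals, with the rest in lower case.
LAMP1: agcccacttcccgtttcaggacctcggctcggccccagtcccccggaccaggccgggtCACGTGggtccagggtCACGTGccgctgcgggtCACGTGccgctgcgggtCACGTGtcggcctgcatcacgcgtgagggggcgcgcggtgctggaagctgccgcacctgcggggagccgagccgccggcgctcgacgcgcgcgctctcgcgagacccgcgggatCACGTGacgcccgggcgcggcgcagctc
A match is a string of letters and not a bound site, and binding was not measured.

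The overexpressed gene was read first, as a check of the labels. FDX1 stood at 60.7 and 59.4 FPKM in FDX1-OE ES, 9.88 and 10.0 FPKM in control ES, 59.8 and 56.0 FPKM in FDX1-OE DMSO, and 10.8 and 10.4 FPKM in control DMSO. Every FDX1-OE library lay above every control library, as labelled. The log2 difference between FDX1-OE DMSO and control DMSO was 2.35 (SE 0.06, adjusted p = 2.69e-06). Here and below, differences are on the log2(FPKM + 1) scale, where changes at low levels come out too small, and adjusted p-values are from limma's moderated test with Benjamini-Hochberg adjustment over all 12063 genes. A gene was called at an adjusted p below 0.05.

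The libraries differed as wholes. Genes at 1 FPKM or more numbered 11868 and 12047 in FDX1-OE ES and 10815 to 11320 in the other 6 libraries. The 13 mRNAs of the mitochondrial genome held 14.7% and 11.9% of all FPKM in FDX1-OE ES and 16.9% to 17.6% elsewhere. The median log2 difference over all genes tested was 0.25 for ES in FDX1-OE cells and 0.09 for ES in control cells, so a gene with the median difference already sat above 0. The absolute depth of the libraries is unknown. B cell markers (MS4A1, CD79A, CD79B and PAX5) summed to 1088 to 1105 FPKM in FDX1-OE ES and 1078 to 1180 FPKM in the other groups. The sum covers opposite differences. CD79B was at 161 and 180 FPKM in FDX1-OE ES and 215 to 242 FPKM elsewhere. PAX5 was at 43.2 and 50.6 FPKM in FDX1-OE ES and 37.6 to 39.3 FPKM elsewhere. MS4A1 and CD79A were not apart from control ES. None of 8 T and NK cell markers passed the filter on low values, and they summed to at most 0.384 FPKM in any library. In this bulk RNA, fewer cells with a transcript and less of it per cell cannot be told apart.

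With ES, the FDX1-OE cells carried more mRNA of all 10 genes than with DMSO. The rise was 3.2-fold in FPKM for CTSB, 2.94-fold for WIPI1, 2.38-fold for SQSTM1 and 1.94-fold for MAP1LC3B, and 1.19-fold for both LAMP1 and TFEB. All 10 were called higher, and in all 10 both ES libraries lay above both DMSO libraries. Over all genes tested 47.1% were called higher and 13.7% lower, and 58.9% had their libraries apart in this direction. The median log2 difference of the 10 genes was 0.73, against 0.25 over all genes, and 8 of the 10 were above the median of all genes. Since the set was chosen with earlier results of these data known, this does not test whether it rose more than other genes. LAMP1 and TFEB lay just below it, with 49.0% and 49.3% of all genes below them, while 98.4% lay below CTSB, 96.6% below SQSTM1, 95.7% below WIPI1 and 92.2% below MAP1LC3B.

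**Figure D1:**
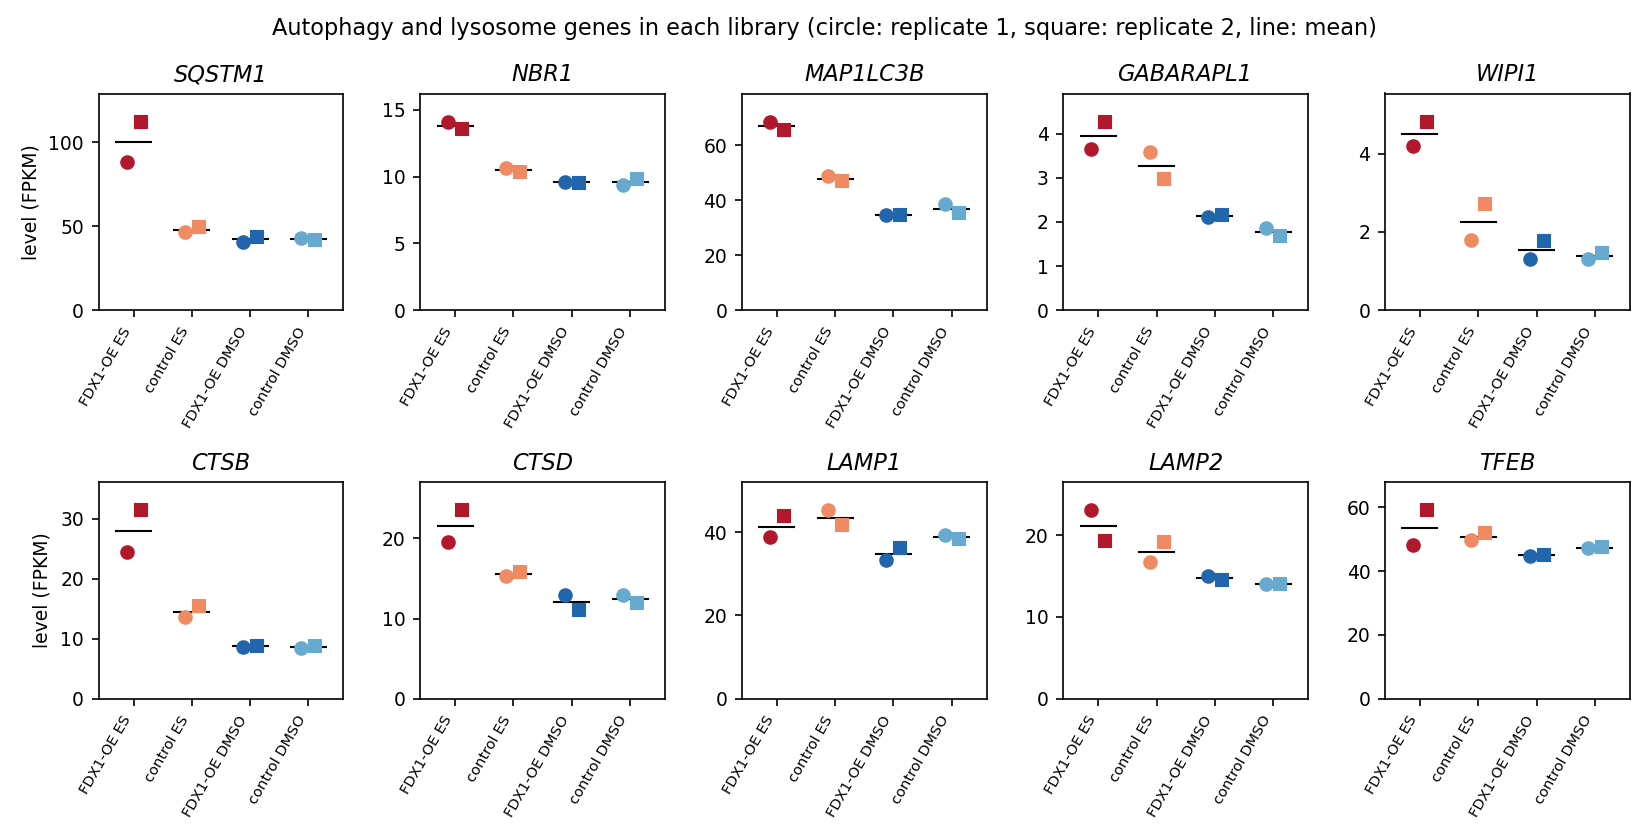
Level in FPKM (vertical axis, from 0) of the 10 genes in each of the 8 libraries, 1 panel a gene, with the 4 groups from left to right, a circle for replicate 1, a square for replicate 2 and a line at the mean of the 2. In all genes but LAMP1 and TFEB both FDX1-OE ES libraries stand above all 6 others, only just so in GABARAPL1 and LAMP2. In LAMP1 and TFEB they are mixed with control ES. The share of all genes with both above all 6 others was not counted. Both stood above FDX1-OE DMSO in 58.9% of all genes tested, and above control ES in 50.6%.

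SQSTM1 and NBR1 are the cargo receptors of the set. SQSTM1 (chr5:179806398-179838078, plus strand, in GENCODE release 29 on GRCh38) encodes p62, which binds ubiquitinated cargo and ATG8 proteins and also restrains KEAP1, the inhibitor of NRF2. It stood at 88.1 and 112.3 FPKM in FDX1-OE ES, 46.5 and 49.4 FPKM in control ES, 40.8 and 43.4 FPKM in FDX1-OE DMSO, and 43.2 and 41.8 FPKM in control DMSO. Both FDX1-OE ES libraries stood far above all others and differed from each other by 24.2 FPKM, while the other 6 lay within 8.51 FPKM of each other. ES raised SQSTM1 by 1.22 (SE 0.11, adjusted p = 6.34e-05) in FDX1-OE cells. In control cells the difference was 0.17 (SE 0.11, adjusted p = 0.333), with a 95% interval of -0.07 to 0.41, although both ES libraries lay above both DMSO libraries. SQSTM1 shares 1582 exon bases with MRNIP on the other strand, and the sources used here do not say whether counting used strand. MRNIP stood at 12.4 and 14.7 FPKM in FDX1-OE ES and 8.37 to 11.2 FPKM in the other libraries, well under SQSTM1 in each.

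NBR1 (chr17:43170481-43211689, plus strand) encodes a second receptor with the same kinds of ubiquitin-binding and ATG8-binding parts. It stood at 14.1 and 13.6 FPKM in FDX1-OE ES, 10.6 and 10.3 FPKM in control ES, 9.63 and 9.55 FPKM in FDX1-OE DMSO, and 9.34 and 9.84 FPKM in control DMSO. Its libraries agreed within 0.561 FPKM in each group, and FDX1-OE ES stood apart from all others. The rise with ES was 0.49 (SE 0.07, adjusted p = 0.000703) in FDX1-OE cells and the difference was 0.12 (SE 0.07, adjusted p = 0.326) in control cells. NBR1 shares 463 exon bases with the gene AC060780.1 on the other strand. AC060780.1 was at 4.31 and 4.31 FPKM in FDX1-OE ES and 2.53 to 3.42 FPKM elsewhere. The handling of strand is not given, and NBR1's values are uncertain to that extent. SQSTM1 was 6.24 and 8.29 times NBR1 in the FDX1-OE ES libraries and 4.24 to 4.78 times NBR1 in the other 6, a ratio within each library that multiplying a library by 1 factor cannot change.

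MAP1LC3B and GABARAPL1 are members of the ATG8 family. MAP1LC3B (chr16:87383995-87404779, plus strand) encodes LC3B, whose lipid-bound form marks autophagosomes. It stood at 68.5 and 65.7 FPKM in FDX1-OE ES, 48.7 and 46.9 FPKM in control ES, 34.7 and 34.5 FPKM in FDX1-OE DMSO, and 38.5 and 35.2 FPKM in control DMSO. These were 3 separate levels, with FDX1-OE ES highest, control ES next and all 4 DMSO libraries together at the bottom. ES raised MAP1LC3B by 0.94 (SE 0.07, adjusted p = 2.61e-05) in FDX1-OE cells and by 0.37 (SE 0.07, adjusted p = 0.0198) in control cells. Its near-copy MAP1LC3B2 was listed at no more than 0.477 FPKM in any library.

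GABARAPL1 (chr12:10212458-10223130, plus strand) belongs to the GABARAP branch of the family. It stood at 3.64 and 4.27 FPKM in FDX1-OE ES, 3.59 and 2.96 FPKM in control ES, 2.11 and 2.16 FPKM in FDX1-OE DMSO, and 1.87 and 1.67 FPKM in control DMSO. Here the ES libraries stood above the DMSO libraries in both kinds of cells, to about the same degree. The rise was 0.66 (SE 0.12, adjusted p = 0.00163) in FDX1-OE cells and 0.62 (SE 0.12, adjusted p = 0.0221) in control cells. The near-copy GABARAPL3 was listed at 0 in all 8 libraries. Of the other family members, GABARAP (92.0 ± 0.945 FPKM in FDX1-OE ES and 76.3 ± 0.984 in FDX1-OE DMSO, SD, n = 2 each) rose by 0.27 (adjusted p = 0.00442), but by 0.03 (adjusted p = 0.633) with median-ratio scaling. GABARAPL2 (63.9 ± 0.315 and 66.1 ± 1.36 FPKM in the same groups) differed by -0.05 (adjusted p = 0.485), and was called lower with median-ratio scaling (-0.28, adjusted p = 0.00338). MAP1LC3A, which did not pass the filter, was listed at 0.784 and 1.02 FPKM in FDX1-OE ES, and at most 0.381 FPKM elsewhere.

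WIPI1 (chr17:68420948-68457513, minus strand) binds the lipid PI3P at sites where autophagosomes form. It stood at 4.21 and 4.82 FPKM in FDX1-OE ES, 1.80 and 2.71 FPKM in control ES, 1.30 and 1.77 FPKM in FDX1-OE DMSO, and 1.31 and 1.46 FPKM in control DMSO. FDX1-OE ES stood apart, while the 2 control ES libraries differed by 0.91 FPKM and the lower only just cleared the DMSO libraries. The rise with ES was 1.13 (SE 0.16, adjusted p = 0.000535) in FDX1-OE cells, and the difference in control cells was 0.44 (SE 0.16, adjusted p = 0.124). WIPI1 shares 828 exon bases with ARSG on the other strand, a lysosomal sulfatase gene that moved with it. ARSG was at 3.25 and 3.99 FPKM in FDX1-OE ES, 1.97 and 2.21 FPKM in control ES, 0.777 and 1.30 FPKM in FDX1-OE DMSO, and 0.646 and 1.05 FPKM in control DMSO. Without the handling of strand, reads of the pair cannot be told apart, and WIPI1's values are uncertain for that reason.

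CTSB and CTSD encode the lysosomal proteases cathepsin B, a cysteine protease, and cathepsin D, an aspartic protease. CTSB (chr8:11842524-11869448, minus strand) stood at 24.4 and 31.4 FPKM in FDX1-OE ES, 13.6 and 15.5 FPKM in control ES, 8.61 and 8.85 FPKM in FDX1-OE DMSO, and 8.53 and 8.80 FPKM in control DMSO. As with MAP1LC3B there were 3 levels, and the 4 DMSO libraries lay within 0.323 FPKM of each other. ES raised CTSB by 1.56 (SE 0.12, adjusted p = 3.73e-05) in FDX1-OE cells and by 0.68 (SE 0.12, adjusted p = 0.0191) in control cells, on this scale the largest differences of the set in both. With a pseudocount of 0.1 in place of 1, GABARAPL1 passed it in control cells, with 0.85 against 0.74 for CTSB.

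CTSD (chr11:1752752-1764573, minus strand) stood at 19.6 and 23.5 FPKM in FDX1-OE ES, 15.3 and 15.8 FPKM in control ES, 12.9 and 11.1 FPKM in FDX1-OE DMSO, and 13.0 and 11.9 FPKM in control DMSO. As with CTSB, FDX1-OE ES was highest, control ES next and the 4 DMSO libraries lowest, with smaller steps. The rise with ES was 0.79 (SE 0.11, adjusted p = 0.000419) in FDX1-OE cells, and the difference was 0.30 (SE 0.11, adjusted p = 0.12) in control cells. Set against each other, the proteases changed places. CTSB was 1.24 and 1.34 times CTSD in the FDX1-OE ES libraries, 0.889 and 0.979 times CTSD in control ES, 0.668 and 0.797 times in FDX1-OE DMSO, and 0.656 and 0.737 times in control DMSO. CTSD shares 1304 exon bases with AC068580.4 on the same strand and 493 with AC068580.3 on the other. AC068580.4 was listed at 0.026 to 0.554 FPKM. The sources used here do not say how reads on shared bases were counted. The level of CTSD, and so the place where the ratio crosses 1, is uncertain.

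LAMP1 and LAMP2 are the main glycoproteins of the lysosomal membrane. LAMP1 (chr13:113297241-113323672, plus strand) stood at 38.7 and 43.8 FPKM in FDX1-OE ES, 45.3 and 41.7 FPKM in control ES, 33.4 and 36.2 FPKM in FDX1-OE DMSO, and 39.2 and 38.3 FPKM in control DMSO. Its 8 libraries spanned 33.4 to 45.3 FPKM, and FDX1-OE ES overlapped control ES. The rise with ES in FDX1-OE cells, 0.24 (SE 0.08, adjusted p = 0.0317), was not called under 11 of 20 alternatives. It was 0.01 (adjusted p = 0.943) under median-ratio scaling of the libraries, and 0.15 (adjusted p = 0.107) without FDX1-OE ES replicate 2. The call was also lost without either DMSO library of either kind of cell, with quantile normalisation, array weights, no trend, no filter on low values, and only the groups compared (adjusted p 0.0525 to 0.184). In control cells the difference was 0.16 (SE 0.08, adjusted p = 0.233). SQSTM1 was 2.27 and 2.57 times LAMP1 within the FDX1-OE ES libraries and 1.03 to 1.22 times LAMP1 within the other 6.

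LAMP2 (chrX:120427827-120469365, minus strand), of which a splice form serves chaperone-mediated autophagy, stood at 23.1 and 19.3 FPKM in FDX1-OE ES, 16.7 and 19.2 FPKM in control ES, 15.1 and 14.6 FPKM in FDX1-OE DMSO, and 14.0 and 14.0 FPKM in control DMSO. The ES libraries lay above the DMSO libraries in both kinds of cells, with FDX1-OE ES only just clear of control ES. The rise was 0.48 (SE 0.10, adjusted p = 0.00344) in FDX1-OE cells, and the difference was 0.34 (SE 0.10, adjusted p = 0.0765) in control cells. The values are per gene and do not separate splice forms.

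TFEB (chr6:41683978-41736259, minus strand) encodes the transcription factor itself. It stood at 48.3 and 59.1 FPKM in FDX1-OE ES, 49.8 and 51.9 FPKM in control ES, 44.9 and 45.2 FPKM in FDX1-OE DMSO, and 47.2 and 47.7 FPKM in control DMSO. In FDX1-OE ES 1 library lay below and the other above both control ES libraries. The rise with ES in FDX1-OE cells was 0.24 (SE 0.09, adjusted p = 0.0459). It was not called under 12 of 20 alternatives. These were median-ratio scaling (0.01, adjusted p = 0.936), quantile normalisation, no trend, no filter, only the groups compared, and the absence of any 1 library other than FDX1-OE ES replicate 1 (0.10, adjusted p = 0.128, without FDX1-OE ES replicate 2). In control cells the difference was 0.10 (SE 0.09, adjusted p = 0.513). TFEB is known to be controlled largely by phosphorylation and entry into the nucleus, which mRNA levels do not show.

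Without ES, FDX1 overexpression was accompanied by no called change in the 10 genes. All 10 had an adjusted p of 0.999 between FDX1-OE DMSO and control DMSO, and limma called 1 gene of 12063 in this comparison (0.00829%), FDX1 itself, while 420 genes had an unadjusted p below 0.05. GABARAPL1 and LAMP2 had both FDX1-OE libraries above both control libraries, and MAP1LC3B, LAMP1 and TFEB had both below. Over all genes, 19.5% were apart in each direction. The differences ran from -0.15 for LAMP1 (95% interval -0.34 to 0.03) to 0.18 for GABARAPL1 (-0.09 to 0.45). The interval for SQSTM1 was -0.26 to 0.23.

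In control cells, ES raised 3 of the 10 genes: CTSB, GABARAPL1 and MAP1LC3B. Over all genes 6.74% were called higher and 1% lower. In all 10 genes both ES libraries lay above both DMSO libraries, as was so for 48.2% of all genes. The median difference of the set was 0.32, against 0.09 over all genes. No call remained when any 1 of the 4 control libraries was left out, although the differences stayed at 0.59 to 0.77 for CTSB, 0.31 to 0.43 for MAP1LC3B and 0.52 to 0.73 for GABARAPL1. Over all genes, those fits called 28 to 159 genes, against 934 with all libraries. None remained either with quantile normalisation or without the filter on low values. Without either FDX1-OE ES library, with array weights or with only the control groups in the fit, 5 were called, CTSD and LAMP2 being the added ones.

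**Figure D2:**
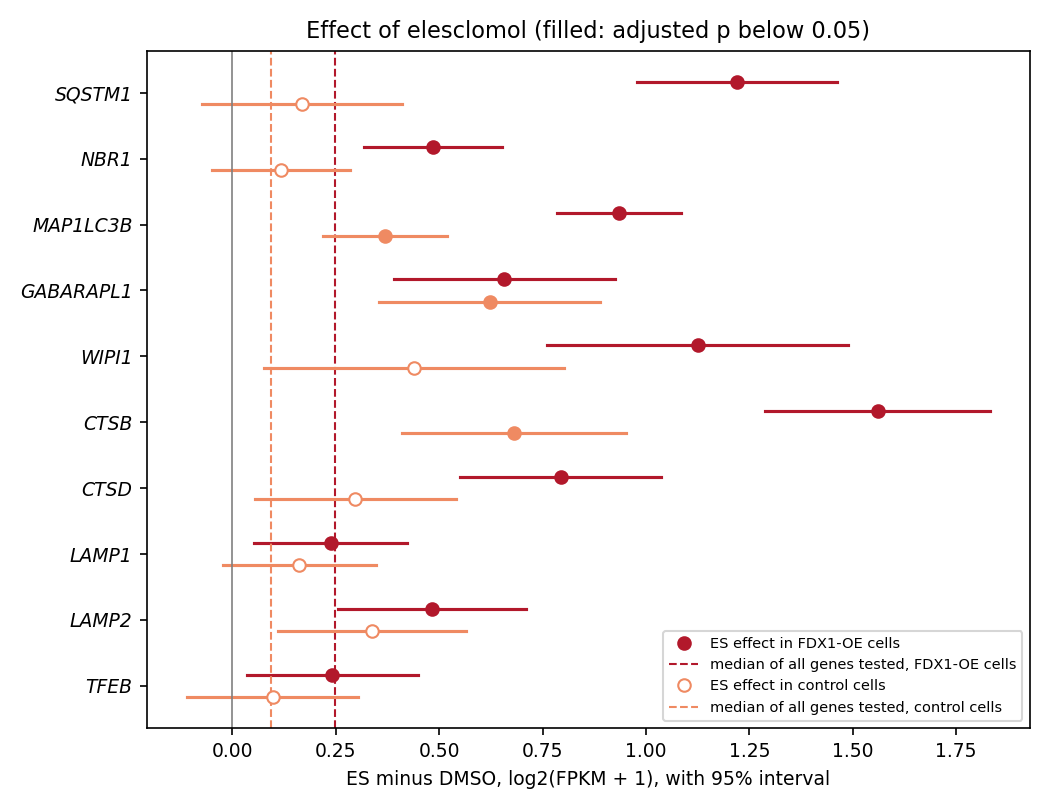
Difference between ES and DMSO on the log2(FPKM + 1) scale (horizontal axis) with its 95% interval for each gene, in FDX1-OE cells (dark) and control cells (light), filled where the adjusted p was below 0.05, with dashed lines at the median of all genes tested. SQSTM1 differs most between the 2 kinds of cells, 1.22 against 0.17, whereas GABARAPL1 is at 0.66 and 0.62.

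The interaction, the ES effect in FDX1-OE cells minus the ES effect in control cells, tested whether the effects differed. It was called for 4 of the 10 genes, all larger in FDX1-OE cells, and 13.9% of all genes were called in this direction and 5.06% in the other. It was 1.05 for SQSTM1 (SE 0.15, adjusted p = 0.0056), 0.88 for CTSB (SE 0.17, adjusted p = 0.0131), 0.57 for MAP1LC3B (SE 0.09, adjusted p = 0.00841) and 0.37 for NBR1 (SE 0.10, adjusted p = 0.0412). SQSTM1 and MAP1LC3B were called under every alternative run, and were the 2 left where the count was lowest, without control DMSO replicate 2, control ES replicate 1 or either FDX1-OE DMSO library. NBR1 was not called under median-ratio scaling (0.24, adjusted p = 0.159), quantile normalisation (0.22, adjusted p = 0.213), array weights (adjusted p = 0.054) or a replicate block (adjusted p = 0.0609), or without any 1 of the 6 libraries outside FDX1-OE ES (adjusted p 0.0974 to 0.139). CTSB was not called without the filter on low values (adjusted p = 0.059), or without any 1 of those 4 libraries (adjusted p 0.0502 to 0.0582). WIPI1 had an interaction of 0.69 (SE 0.22, adjusted p = 0.0652), which was called with the replicate block (adjusted p = 0.0344), with equal FPKM totals with or without mitochondrial genes (adjusted p = 0.0304 and 0.0414), and without control ES replicate 2 (0.89, adjusted p = 0.0485). CTSD had one of 0.50 (SE 0.15, adjusted p = 0.0521), which was called in 4 of 19 alternatives, namely both kinds of equal totals, a filter of 5 FPKM, and without FDX1-OE ES replicate 1 (adjusted p 0.0151 to 0.0446). The other 4 had small interactions with wide intervals: 0.04 for GABARAPL1 (95% interval -0.34 to 0.41), 0.08 for LAMP1 (-0.18 to 0.34), 0.15 for LAMP2 (-0.18 to 0.47) and 0.14 for TFEB (-0.15 to 0.44). Without FDX1-OE ES replicate 1 the interaction of TFEB was called (0.29, adjusted p = 0.0193). These intervals do not show that ES acted alike on them in both kinds of cells.

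Set side by side under ES, FDX1-OE cells had more mRNA than control cells for 6 of the 10 genes, and 31.1% of all genes were called higher. The differences were 1.04 for SQSTM1, 0.89 for CTSB, 0.77 for WIPI1, 0.48 for MAP1LC3B, 0.44 for CTSD and 0.37 for NBR1 (adjusted p 0.000495 to 0.0122). GABARAPL1 (0.21, adjusted p = 0.172), LAMP2 (0.22, adjusted p = 0.103), TFEB (0.07, adjusted p = 0.552) and LAMP1 (-0.08, adjusted p = 0.471) were not called. Calls of CTSD were lost without control ES replicate 1 (0.42, adjusted p = 0.0742) and with median-ratio scaling (0.31, adjusted p = 0.053), and quantile normalisation lost both CTSD (0.33, adjusted p = 0.0525) and NBR1 (0.21, adjusted p = 0.0687). TFEB moved with single libraries, to 0.21 (adjusted p = 0.0141) without FDX1-OE ES replicate 1 and to -0.07 (adjusted p = 0.266) without replicate 2, and LAMP2 was called without replicate 2 (0.35, adjusted p = 0.0197) and with equal FPKM totals (0.36, adjusted p = 0.0152). The libraries were apart, with FDX1-OE ES above, in 8 of the 10 genes, against 50.6% of all genes, and overlapped in LAMP1 and TFEB. This comparison shares its FDX1-OE ES libraries with the ES comparison in FDX1-OE cells.

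The order of levels within a library changed with these differences. FPKM is scaled to gene length, so the genes can be set against each other, though exon overlaps such as that of CTSD leave some levels uncertain. SQSTM1 was the highest of the 10 in both FDX1-OE ES libraries, and TFEB was the highest in each of the other 6 libraries. In FDX1-OE ES the order of mean levels was SQSTM1, MAP1LC3B, TFEB, LAMP1, CTSB, CTSD, LAMP2, NBR1, WIPI1 and GABARAPL1. The neighbours CTSD (21.6 ± 2.76 FPKM) and LAMP2 (21.2 ± 2.65 FPKM) did not differ beyond their spread (SD, n = 2), nor did WIPI1 (4.51 ± 0.433) and GABARAPL1 (3.96 ± 0.445). In control ES the top 4, TFEB at 50.8 ± 1.53, SQSTM1 at 47.9 ± 2.05, MAP1LC3B at 47.8 ± 1.27 and LAMP1 at 43.5 ± 2.50 FPKM, lay close together. The 10 genes summed to 333 and 378 FPKM in FDX1-OE ES, 252 and 256 in control ES, 203 and 207 in FDX1-OE DMSO, and 216 and 211 in control DMSO. SQSTM1 made up 26.5% and 29.7% of that sum in FDX1-OE ES and 18.4% to 20.9% in the other 6 libraries.

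The direction of the 10 differences in FDX1-OE cells did not depend on how the libraries were scaled, but their size and some calls did. Over all genes the median difference of 0.25 became 0.05 with median-ratio scaling, -0.01 with quantile normalisation and 0.37 with equal FPKM totals. Of the genes called, 77.5% were higher as deposited, 54.5% with median-ratio scaling, 48.7% with quantile normalisation and 86.6% with equal totals. SQSTM1, NBR1, MAP1LC3B, WIPI1, CTSB and CTSD were called under all of these scalings. Quantile normalisation lost GABARAPL1 (0.24, adjusted p = 0.132) and LAMP2 (0.28, adjusted p = 0.0573) as well as LAMP1 and TFEB.

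**Figure D3:**
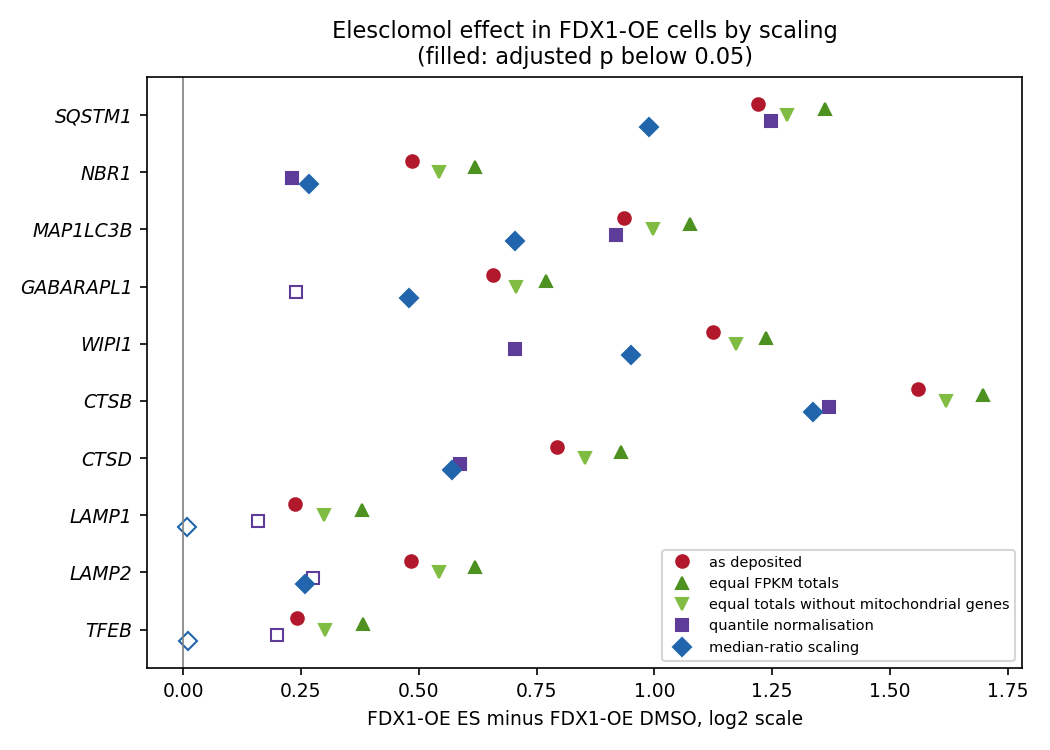
Difference between FDX1-OE ES and FDX1-OE DMSO on the log2 scale (horizontal axis) for each of the 10 genes with the values as deposited and under 4 other scalings, filled where the adjusted p was below 0.05. SQSTM1, NBR1, MAP1LC3B, WIPI1, CTSB and CTSD stay filled throughout, and LAMP1 and TFEB fall to 0.01 with median-ratio scaling.

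The rest of the pathway was read from 12 lists of 162 further symbols, of which 142 were tested. Like the 10 genes, these symbols were chosen with earlier results of these data known. With ES in FDX1-OE cells 85 were called higher and 9 lower, so 59.9% were higher, against 47.1% of all genes, and their median difference was 0.40, against 0.25. With median-ratio scaling 54 were higher and 22 lower (38.0% higher, against 28.6% of all genes). In control cells 10 were higher and 1 lower, 7.04% higher against 6.74% of all genes. The interaction was called for 22 above 0 and 6 below, 15.5% above against 13.9% of all genes, and with median-ratio scaling for 11 in each direction, 7.75% each way against 6.66% of all genes above 0 and 8.38% below. The named genes of each list are from the 3 with the smallest p in FDX1-OE cells. Exceptions are genes at low levels and those of the mTORC1 list that fell. All values that follow are for FDX1-OE ES against FDX1-OE DMSO unless stated.

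At the start of the pathway, 2 of 4 tested genes of the ULK1 complex rose (50%, against 47.1% of all genes) and the others were not called. None fell, against 13.7% of all genes. ATG13, a scaffold of the complex, rose by 0.84 (adjusted p = 5.67e-05; 24.3 ± 0.558 FPKM in FDX1-OE ES and 13.2 ± 0.197 in FDX1-OE DMSO, SD, n = 2 each), and ULK1, its kinase, by 0.94 (adjusted p = 0.00273). RB1CC1 differed by 0.17 (adjusted p = 0.249). Of the PI3-kinase complex, which makes PI3P, 6 of 8 rose (75%) and none fell. They included ATG14 (0.69), AMBRA1 (0.55) and RUBCN (0.58), the last of which encodes Rubicon, known as a brake on autophagy. Of the PI3P effectors and lipid transfer genes 5 of 7 rose (71.4%), among them ZFYVE1 (0.94), WIPI2 (0.51) and the lipid transfer gene ATG2B (0.46). Of the genes of ATG8 conjugation and processing only 3 of 10 rose (30%), ATG12 (0.40), ATG4C (0.58) and ATG10 (0.61). The median of the list was 0.20, below that of all genes. Apart from ATG13, adjusted p-values of the called genes named here ran from 0.000269 to 0.00928. With quantile normalisation ATG14, AMBRA1, ATG2B, ATG12, ATG4C and ATG10 were not called (adjusted p 0.0577 to 0.366), nor were ATG2B (0.26, adjusted p = 0.069) and ATG12 (0.18, adjusted p = 0.0608) with median-ratio scaling, nor ATG10 without FDX1-OE DMSO replicate 1 (0.44, adjusted p = 0.0716).

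Among the other receptors 6 of 12 rose (50%, against 47.1% of all genes) and 1 fell. The leading genes were OPTN, which encodes optineurin, a receptor for damaged mitochondria and bacteria, CCPG1, a receptor for the endoplasmic reticulum, and CALCOCO2, which encodes NDP52. OPTN stood at 8.77 ± 0.995 FPKM in FDX1-OE ES, 3.95 ± 0.103 in control ES, 1.87 ± 0.112 in FDX1-OE DMSO and 1.70 ± 0.027 in control DMSO (SD, n = 2 each). It rose by 1.77 (adjusted p = 1.31e-05) in FDX1-OE cells and by 0.88 (adjusted p = 0.00525) in control cells. CCPG1 rose by 1.27 (adjusted p = 7.16e-05) and CALCOCO2 by 1.01 (adjusted p = 0.000155). The list's median of 0.28 was close to that of all genes.

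Among lysosomal proteins, 5 of 7 other cathepsins and legumain rose (71.4%, against 47.1% of all genes) and none fell. LGMN, which encodes legumain, and CTSS, a cathepsin of antigen-presenting cells, each rose by 0.44, and CTSZ rose by 0.48 (adjusted p 0.00162 to 0.00465). CTSS was not called with quantile normalisation (0.19, adjusted p = 0.0847), nor CTSZ with median-ratio scaling (0.25, adjusted p = 0.0746). CTSL, another cysteine cathepsin, was listed at no more than 0.0563 FPKM. Of the other membrane proteins 10 of 16 rose (62.5%), led by SCARB2, LAMP3 and LAPTM5, and 1 fell. SCARB2, which encodes the lysosomal membrane protein LIMP-2, stood at 6.63 ± 0.044 FPKM in FDX1-OE ES, 2.40 ± 0.517 in control ES, 0.583 ± 0.0692 in FDX1-OE DMSO and 0.565 ± 0.0264 in control DMSO. Its rise was 2.27 (adjusted p = 1.06e-05) in FDX1-OE cells and 1.11 (adjusted p = 0.0046) in control cells, in both larger than that of any of the 10 genes. SCARB2 passed the filter on low values only through ES libraries. LAMP3, a further LAMP family gene that interferon is known to induce, rose by 1.59 (adjusted p = 1.42e-05) in FDX1-OE cells, where LAMP1 and LAMP2 rose by 0.24 and 0.48, and LAPTM5 rose by 0.98 (adjusted p = 2.66e-05).

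Of the hydrolases and their activators 25 of 33 rose (75.8%, against 47.1% of all genes) and 2 fell (17 and 2 with median-ratio scaling). PSAP, the precursor of the saposins, rose by 0.55 (adjusted p = 0.000136). MAN2B1, lysosomal alpha-mannosidase, went the other way, with 20.9 ± 0.0878 FPKM in FDX1-OE ES and 35.2 ± 1.70 in FDX1-OE DMSO, and fell by 0.73 (adjusted p = 6.82e-05). The V-ATPase, the pump that acidifies lysosomes, had 8 of 18 subunits higher and 1 lower, a share of 44.4% higher and a median of 0.10, below those of all genes. With median-ratio scaling 3 of its subunits were higher and 8 lower (44.4% lower, against 23.9% of all genes). ATP6V0A1 and ATP6V1D each rose by 0.53, and ATP6V0B fell by 0.61 (adjusted p 0.000336 to 0.000734).

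Of 5 tested transcription factors 3 rose (60%, against 47.1% of all genes) and none fell. TFE3, a relative of TFEB that binds the same element, stood at 19.0 ± 3.47 FPKM in FDX1-OE ES, 11.8 ± 0.241 in control ES, 8.72 ± 0.471 in FDX1-OE DMSO and 9.26 ± 0.0236 in control DMSO. It rose by 1.03 (adjusted p = 0.000167), where TFEB, at a higher level throughout, rose by 0.24. TFEC rose by 0.67 (adjusted p = 0.00393) and FOXO3 by 0.58 (adjusted p = 0.00167), and neither was called with quantile normalisation (0.36, adjusted p = 0.0665, and 0.13, adjusted p = 0.337). MITF, the fourth of the family, was listed at no more than 0.0621 FPKM. The kinase complex mTORC1 restrains autophagy and TFEB when nutrients are plentiful. Of the genes listed for mTORC1 at the lysosome 11 of 20 rose (55%, against 47.1% of all genes) and 4 fell (6 and 6 with median-ratio scaling). RRAGD (1.26, adjusted p = 0.000263), FNIP2 (0.92, adjusted p = 0.000253) and FLCN (0.61, adjusted p = 0.000741) rose. RRAGD stood at 2.47 ± 0.398 FPKM in FDX1-OE ES, 1.36 ± 0.374 in control ES and 0.447 ± 0.143 in FDX1-OE DMSO. It passed the filter only through ES libraries. FNIP2 stood at 1.63 ± 0.0695, 0.706 ± 0.00696 and 0.387 ± 0.0354 FPKM in the same order, and passed only through FDX1-OE ES. Its call therefore rests on the values that admitted it to the test. Products of RRAGD, FNIP2 and FLCN work in the Rag GTPase branch that tethers TFEB and TFE3 to the lysosome. The 4 genes that fell belong to the same branch. They were LAMTOR4 (-0.71, adjusted p = 0.000933), LAMTOR5 (-0.43, adjusted p = 0.00253), LAMTOR2 (-0.38, adjusted p = 0.0093) and RRAGA (-0.38, adjusted p = 0.00704). The branch therefore did not move in 1 direction.

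**Figure D4:**
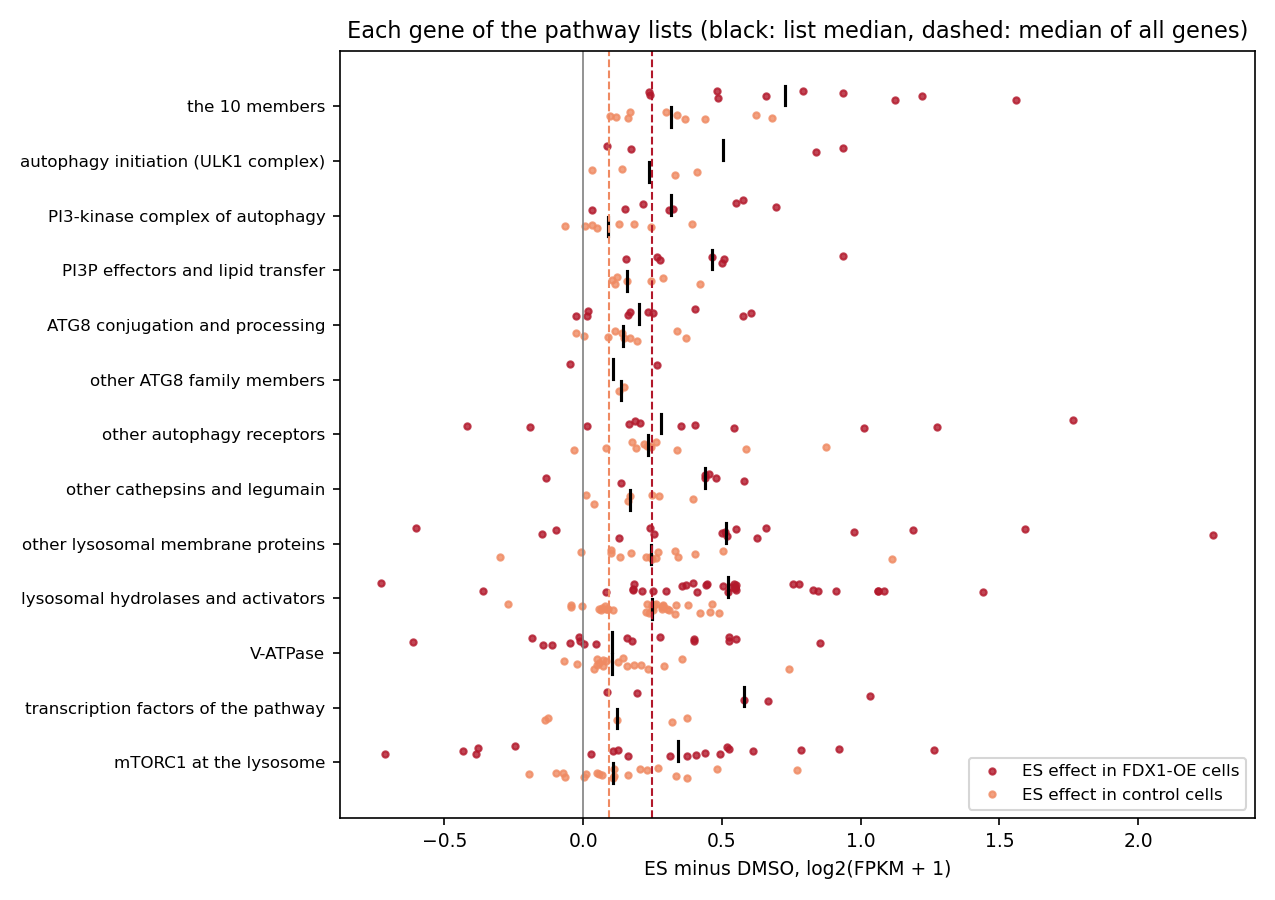
Difference between ES and DMSO on the log2(FPKM + 1) scale (horizontal axis) for each tested gene of the set and of the 12 pathway lists, in FDX1-OE cells (dark) and control cells (light), with a black line at each median and dashed lines at the medians of all genes. The medians in FDX1-OE cells run from 0.73 for the 10 genes and 0.58 for the transcription factors down to 0.11 for the other ATG8 family members and 0.10 for the V-ATPase.

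The summed level of markers of another cell type was higher with ES, at very low levels and mostly through 1 gene. Markers of myeloid cells, which are rich in cathepsins, are 8 genes that summed to 3.25 to 4.97 FPKM in FDX1-OE ES, 3.46 to 4.30 in control ES, 1.74 to 2.35 in FDX1-OE DMSO and 1.62 to 1.69 in control DMSO. Of the 8, 1 passed the filter on low values, AIF1, which made up most of these sums, and FCGR3A, S100A8 and S100A9 were at 0 in all 8 libraries. The rest did not move together. CD14 was at 0 in both FDX1-OE ES libraries and 0.0246 to 0.182 FPKM elsewhere. ITGAM was at 0.202 and 0.339 FPKM in FDX1-OE ES and at most 0.0361 FPKM elsewhere. The 6 epithelial and fibroblast markers summed to 0.978 to 1.77 FPKM over all libraries, with 1 past the filter. The part of these transcripts in the cathepsin values was not tested.

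As a description of which other genes varied most like 4 of the set, Pearson's r of log2(FPKM + 1) was taken over the 8 libraries, which fall into groups and share their depth. Nearest SQSTM1 were CCDC92, CXCL10 and GANAB (each r = 1.00 to 2 decimals), and 2855 genes had an r above 0.9 with it. MAP1LC3B had RNF185, ATG13 and VPS35L (3321 genes above 0.9), and CTSD had HECTD4, RERE and KIF13B (3033 genes). TFEB had KLHDC4 and ATG2A, both at 0.99, and 247 genes above 0.9.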

How the data were processed

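RNA sequencing gave 8 libraries of WSU-DLCL2 cells, in 4 groups of 2, with RNA extracted by TRIzol and libraries made with a VAHTS Universal V6 kit, per the labels' protocols. No header names the unit. The deposited values were read as FPKM, which the authors would have scaled to gene length and library size, because they are not whole and sum to between 403024 and 451027 in a library. HISAT2, HTSeq, R 3.2.0 and hg19 are named, without their roles, per the submitters' processing notes. The tool that made the FPKM, the depth and the handling of strand are not given in the sources used here. The precision of low values is therefore unknown, and no counting interval was computed.

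A gene was tested if it reached 1 FPKM in 2 or more libraries (12063 genes), as log2(FPKM + 1) with no further scaling. The model, in limma 3.58.1 (R 4.3.3), had 4 group means over the 8 libraries and a mean-variance trend (4 residual and 4.25 prior degrees of freedom), with two-sided tests. Adjusted p-values are Benjamini-Hochberg over all genes tested. The design allowed for counts or FPKM, and the FPKM course was followed. The 5 comparisons were ES against DMSO in each kind of cell, FDX1-OE against control under each treatment, and the interaction. Groups came from the labels, and no 2 libraries held identical values. In each group, replicate 1 minus replicate 2 was taken for every gene tested, and these differences were correlated between groups. The 6 correlations ran from -0.05 to 0.08. They gave no sign of pairing by replicate number, and none was modelled outside the replicate block. Rows with a shared symbol (1059) were not merged, and no such row is reported. The fit was tested on simulated data. Alternatives covered the pseudocount, filter, scaling, weights, trend, groups fitted, a replicate block and each library left out.

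The 10 genes, the 12 lists and the marker lists were chosen with earlier results of these data known. Named genes were FDX1, the 10, and in each list the 3 with the smallest p for ES in FDX1-OE cells. Likeness was read for SQSTM1, MAP1LC3B, CTSD and TFEB. A few genes that these rules or the marker lists would name are not reported here. Other genes are named only as near-copies, overlapping genes, markers, list members at low levels or genes of the mTORC1 list that fell. They were chosen after their values were seen. Gene positions and exon overlaps are from GENCODE release 29 on GRCh38, and promoter windows from RefSeq, so none is in the build of the files.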

Additional observations from a re-analysis of the deposited data

Results flagged for a closer look

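Of the 10 genes and those named by smallest p from each list, 18 had an ES effect that differed between FDX1-OE and control cells. The test was limma's interaction, called at an adjusted p below 0.05. Each of the 18 is given as the ES effect in FDX1-OE cells minus that in control cells on the log2(FPKM + 1) scale. Among the 10 genes these were SQSTM1 (1.05), CTSB (0.88), MAP1LC3B (0.57) and NBR1 (0.37). Among the early autophagy genes they were ATG13 (0.51) and RUBCN (0.45), and among the other receptors OPTN (0.89), CCPG1 (0.69) and CALCOCO2 (0.67). Among lysosomal genes they were LAMP3 (1.35), SCARB2 (1.16) and LAPTM5 (0.47), with MAN2B1 (-0.46) and ATP6V0B (-0.68) on the other side of 0. Among regulators they were TFEC (0.80), TFE3 (0.71), FNIP2 (0.55) and FLCN (0.45). FNIP2 passed the filter on low values only through FDX1-OE ES, the group where it was highest. Genes from the lists were named by their p for ES in FDX1-OE cells, which is part of this difference, so calls are favoured among them. Of all 142 tested list genes, 22 were called above 0 and 6 below. Over all genes the shares were 13.9% and 5.06%. Calls of SQSTM1, MAP1LC3B, OPTN, SCARB2 and LAMP3 held under all 19 alternatives. Of the 19, the call was lost under 5 for CTSB, ATG13, MAN2B1 and ATP6V0B, 6 for CCPG1 and LAPTM5, 7 for CALCOCO2, 8 for TFE3 and TFEC, 10 for NBR1 and RUBCN and 13 for FLCN, and for FNIP2 under 14 of 18. ATP6V0B stood at 62.0 ± 8.68 FPKM in FDX1-OE ES, 97.8 ± 5.30 in control ES, 94.8 ± 0.206 in FDX1-OE DMSO and 93.0 ± 2.85 in control DMSO (SD, n = 2 each). LAMP3 stood at 32.2 ± 1.20, 14.7 ± 1.77, 10.0 ± 0.0998 and 12.2 ± 0.968 FPKM in the same order. Groups of 2 libraries were too small for a search for single outlying libraries.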

How the results depend on the processing

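Under 20 alternatives (19 for the interaction) the count of called genes among the 10 was 6 to 10 for ES in FDX1-OE cells, with 6 under quantile normalisation. For ES in control cells it was 3, and became 0 without the filter on low values and with quantile normalisation, and 5 with array weights and with only the groups compared. With a filter of 5 FPKM, which GABARAPL1 and WIPI1 did not pass, it was 2 of the 8 genes tested. Leaving out 1 library gave 0 to 5 there, 2 to 6 for the interaction (4 as reported) and 8 to 10 for ES in FDX1-OE cells. Where that left a group with 1 library, the lone library was assumed to vary like the others. FDX1 overexpression in DMSO was called under all of them. The replicate block changed 2 calls among the 10 genes, NBR1 and WIPI1 in the interaction (adjusted p = 0.0609 and 0.0344), and left the interaction count at 4. In the whole table it moved no count of called genes by over 1.5 times. Over all genes, counts of called genes ran from 5290 to 8164 for ES in FDX1-OE cells (7334 as reported), from 28 to 2523 in control cells (934), from 2499 to 6606 between FDX1-OE ES and control ES (5008) and from 535 to 3868 for the interaction (2291), and FDX1-OE DMSO against control DMSO gave 1 to 4 (1). The share of called genes above 0 was, with median-ratio scaling and quantile normalisation, 60.2% and 74.5% in control cells (87.0% as reported), 51.1% and 49.1% between FDX1-OE ES and control ES (75.0%) and 44.3% and 49.0% for the interaction (73.4%). With equal FPKM totals the last 2 became 88.8% and 89.6%.

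Signs changed for the differences that follow. For ES in FDX1-OE cells, median-ratio scaling gave FDX1 -0.18 (adjusted p = 0.0435) and RB1CC1 -0.036, quantile normalisation gave RB1CC1 -0.14, and equal totals gave GABARAPL2 0.093, or 0.012 without mitochondrial genes. In control cells, median-ratio scaling gave RB1CC1 -0.050 and ATP6V0B -0.022, and quantile normalisation gave RB1CC1 -0.085, ATG2B -0.012 and FOXO3 -0.063. Between FDX1-OE ES and control ES, quantile normalisation gave GABARAPL1 -0.048, equal totals gave LAMP1 0.062 and median-ratio scaling gave TFEB -0.071. In the interaction, median-ratio scaling gave FDX1 -0.013, GABARAPL1 -0.081, LAMP1 -0.062, GABARAP -0.021 and CTSZ -0.059, and quantile normalisation gave GABARAPL1 -0.21 and RB1CC1 -0.060. Over the fits that left out 1 library, RB1CC1 ran from -0.0030 to 0.35 in FDX1-OE cells, from -0.014 to 0.080 in control cells and from -0.036 to 0.31 in the interaction. TFEC ran from -0.29 to 0.016 in control cells. Between FDX1-OE DMSO and control DMSO, SQSTM1 ran from -0.056 to 0.030, NBR1 from -0.033 to 0.035 and WIPI1 from -0.052 to 0.22. In the same comparison CTSB ran from -0.0098 to 0.031 and CTSD from -0.15 to 0.047. Between FDX1-OE ES and control ES, LAMP1 ran from -0.16 to 0.0099 and TFEB from -0.073 to 0.21. In the interaction, GABARAPL1 ran from -0.071 to 0.14, LAMP1 from -0.0096 to 0.16, TFEB from -0.00041 to 0.29 and CTSZ from -0.070 to 0.23. The cause of these changes was not tested. With 2 libraries a group and no stated depth, small differences such as those of LAMP1 and TFEB could not be settled.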
